A study of Sus scrofa with 63 samples.

Results

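The LWMS fetus is the crossbred offspring of a Large White (LW) sire and a Meishan (MS) sow, and its jejunum was compared at day 90 and day 110 of gestation. The fetuses were chosen by the genotype and age in the sample labels, which gave 18 of the 63 arrays of the series, 9 at day 90 and 9 at day 110. LW pigs are a lean commercial breed, and MS pigs are a Chinese breed whose piglets survive well around birth. The study asked how the fetal intestine matures toward term and how the breed of the sow and of the sire bears on it. The other 45 arrays were of purebred LW fetuses (9 at day 90 and 9 at day 110), purebred MS fetuses (6 and 7) and the reciprocal MSLW cross of an MS sire and an LW sow (8 and 6). The labels name no engineered allele and no agent.

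Sows were inseminated with mixed semen, so that LWMS fetuses grew in the same litters as purebred MS fetuses. All fetuses were male, and the X chromosome of an LWMS fetus therefore came from the MS sow. The labels did not give the sow, so that litter mates entered every test as independent fetuses, and because each sow was sampled at 1 age, sow and age cannot be told apart. The RNA was total RNA of the whole wall of the middle jejunum, in which fewer cells of a type and less RNA per cell cannot be told apart.

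In the weeks before birth the intestine of the pig turns from a tissue that meets swallowed amniotic fluid into one that must digest colostrum and milk. Villi lengthen, the microvillus membrane gains disaccharidases and peptidases, and enterocytes take up hexoses, fat and minerals through dedicated carriers. Fetal cortisol and thyroid hormone rise toward term and are known to drive much of this change, while fetal growth regulators such as HMGA2 are switched off.

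Each array, a 1-colour Agilent porcine array, gave 1 level per probe, the log2 of the signal, read as Cy3, minus the 75th percentile of that array, so that 0 is the 75th percentile. The LWMS arrays lay on 8 slides, of which 6 held both ages. Between 59.2% and 87.6% of probes were well above background at day 90 and between 60.4% and 72.1% at day 110. The value of 87.6% belonged to 1 day 90 array, that of fetus 823, and the next was 67.5%. Pearson correlations between arrays, over probes, ran from 0.962 to 0.987 within day 90, from 0.946 to 0.989 within day 110 and from 0.944 to 0.974 between the ages. All 15 enterocyte markers and all 13 goblet and Paneth-type markers that were tested rose above background on at least 1 LWMS array. Probes dim in every group were left out before testing, and the tested markers of the other cell types passed as well. The markers are therefore no check of the tissue label.

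From day 90 to day 110, 3996 of 40515 probes changed (9.86%), that is, had an adjusted p no higher than 0.01 and differed by 0.5 or more on the log2 scale. Of these, 1692 were higher at day 110 (4.18%) and 2304 were lower (5.69%). With each array centred on its median in place of the 75th percentile, the split turned to 1826 higher and 932 lower, and the median change of all probes moved from -0.04 to 0.10 on the log2 scale. By named gene, taking the brightest probe of each, 1282 of 11071 genes changed (11.6%), 566 higher (5.11%) and 716 lower (6.47%). These shares are the background against which the counts of each gene list below are to be read. The log2 change was at least 1 in size at 1689 of the called probes and at least 2 at 357. The 9 fetuses of one age lay wholly above or below the 9 of the other at 483 named genes (4.36%) and 1237 probes (3.05%). Within the 6 slides that held both ages, 3626 of the 3996 called probes moved the same way on every slide.

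**Figure D1:**
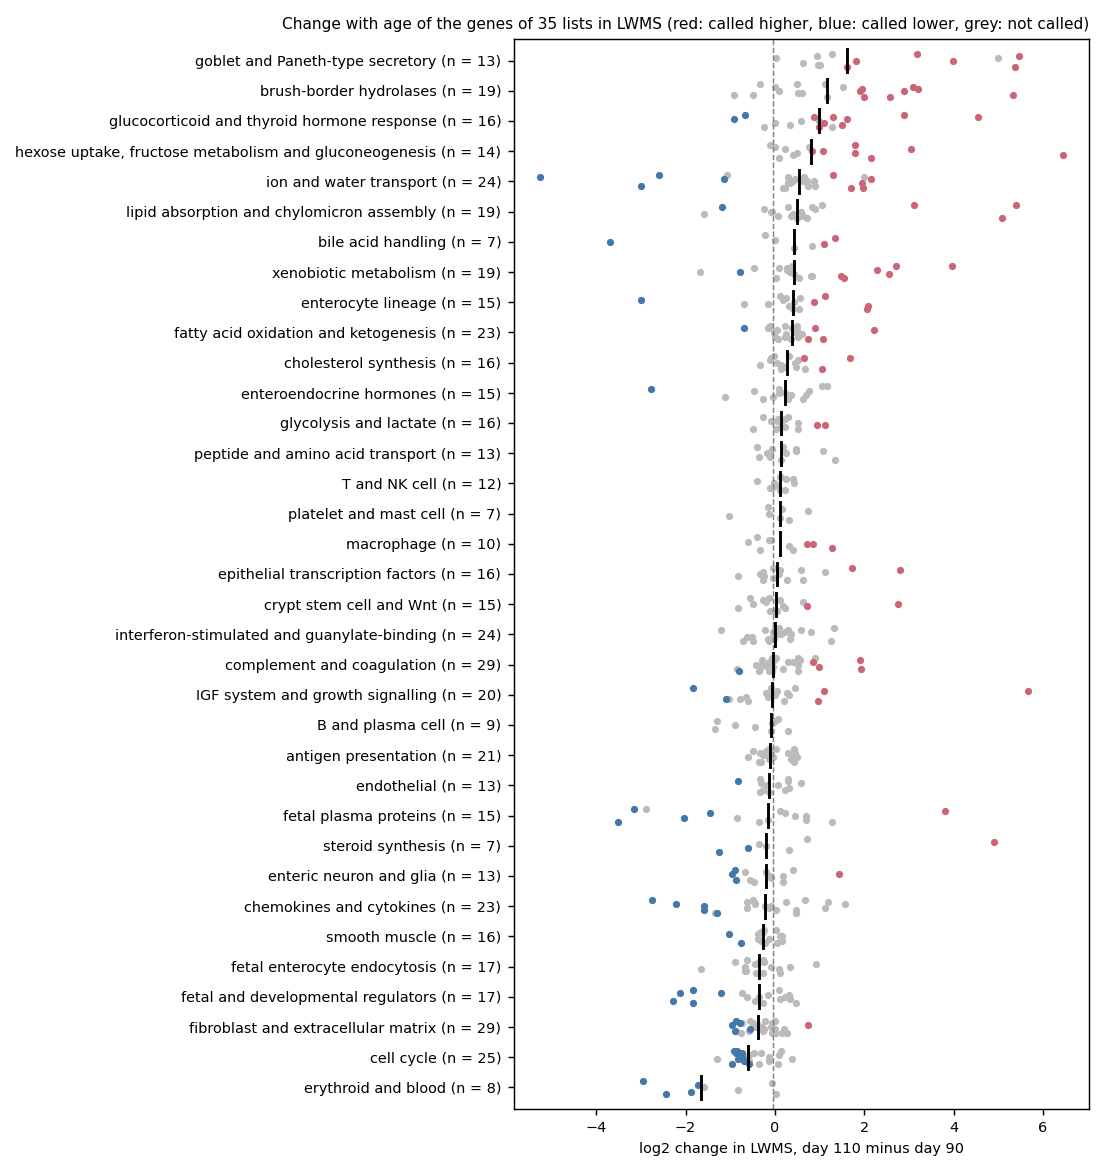
Log2 change from day 90 to day 110 in LWMS jejunum for 35 gene lists (x axis, log2 scale; 1 point per tested gene by its brightest probe, red where called higher, blue where called lower and grey otherwise; black ticks at the medians, dashed line at the median of all genes). The goblet and Paneth-type list and the brush-border list lie farthest to the right, at medians of 1.62 and 1.16, and the erythroid list lies farthest to the left, at -1.66, against -0.03 for all 11071 genes.

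Enzymes of the microvillus membrane were among the genes that rose. Of 19 brush-border hydrolases tested, 8 rose and none fell, with a median log2 change of 1.16 against -0.03 over all genes and a background of 5.11% higher. LCT, which encodes lactase and splits milk sugar, had levels from 3.03 to 4.00 (median 3.54) at day 90 and from 4.32 to 6.31 (median 5.61) at day 110. No day 110 fetus overlapped with day 90, and LCT was 3.76-fold higher at day 110 (log2 change 1.91 ± 0.46 SE, adjusted p = 0.0018). MGAM, maltase-glucoamylase, which releases glucose from starch fragments, had levels from -3.30 to -1.56 (median -2.65) at day 90 and from -1.01 to 1.88 (median 0.87) at day 110, again without overlap, and was 9.21-fold higher at day 110 (log2 change 3.20 ± 0.53 SE, adjusted p = 7.32e-06).

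TMPRSS15 encodes enteropeptidase, the protease that starts pancreatic digestion by activating trypsinogen. Its levels ran from -2.29 to 2.003 (median -1.05) at day 90 and from 1.87 to 6.42 (median 4.54) at day 110. The highest day 90 fetus was just above the lowest day 110 fetus, and TMPRSS15 was 40.4-fold higher at day 110 (log2 change 5.34 ± 0.75 SE, adjusted p = 2.82e-07). The peptidases DPP4, NAALADL1 and FOLH1B also rose, with log2 changes of 1.95, 2.57 and 2.002 and no overlap between ages. FOLH1B is the name that the array gives to a probe for folate hydrolase, which frees dietary folate. ALPI, intestinal alkaline phosphatase, rose by 2.90 ± 0.62 (SE), and its groups overlapped through 1 day 110 fetus. Sucrase-isomaltase, SI, did not pass the test, with levels from -7.84 to -1.78 (median -6.42) at day 90 and from -5.62 to -2.05 (median -4.38) at day 110 and a log2 difference of 1.52 ± 0.72 (adjusted p = 0.131).

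In the list of enterocyte markers, 4 of 15 tested members rose, 1 fell and 10 did not pass, with a median log2 change of 0.40. MYO1A, the motor that ties the microvillus core to its membrane, was 4.24-fold higher at day 110 (log2 change 2.08 ± 0.19 SE, adjusted p = 1.31e-12). KRT20, a keratin of mature villus cells, was 4.16-fold higher and GPA33, a surface glycoprotein of intestinal epithelium, was 2.16-fold higher. LGALS4, a lectin that sorts proteins to the apical membrane, was 1.82-fold higher. The member that fell was SLC26A3, a chloride and bicarbonate exchanger. The summed level of the 15 markers, on a linear scale where 1 is the array's 75th percentile, ran from 269 to 467 at day 90 (median 350) and from 363 to 632 at day 110 (median 463). The epithelial sum thus overlapped between ages but had a higher median at day 110, and its part in the other epithelial results was not tested.

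Of 14 genes tested for glucose uptake, fructose use and glucose release, 7 rose, none fell and the other 7 did not pass, with a median log2 change of 0.80. SLC5A1, the sodium-glucose cotransporter SGLT1 of the apical membrane, had levels from 4.40 to 5.53 (median 5.14) at day 90 and from 5.69 to 7.19 (median 6.82) at day 110. Its groups did not overlap, and SLC5A1 was 3.45-fold higher at day 110 (log2 change 1.79 ± 0.36 SE, adjusted p = 0.000216). KHK, the first enzyme of fructose breakdown, had levels from -1.64 to -1.10 (median -1.54) at day 90 and from 1.06 to 2.55 (median 1.54) at day 110 and was 8.22-fold higher at day 110 (log2 change 3.04 ± 0.24 SE, adjusted p = 6.76e-15), also without overlap. The facilitative carriers SLC2A5 and SLC2A2 did not pass the test, with log2 differences of -0.11 ± 0.43 and 0.41 ± 0.46.

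G6PC encodes glucose-6-phosphatase, the last step of gluconeogenesis. Its levels ran from -6.53 to -4.67 (median -5.61) at day 90 and from 0.12 to 1.82 (median 1.002) at day 110. The probe was well above background in 2 of 9 fetuses at day 90 and in 9 of 9 at day 110. The fitted log2 change was 6.45 ± 0.46 (SE, adjusted p = 1.34e-15), and the other G6PC probes changed by 5.81 and 4.04. The size rests on signal mostly at background at day 90: with normexp, another correction of the background, the log2 change of the first probe was 4.10. PCK1, which makes phosphoenolpyruvate from oxaloacetate, was 4.41-fold higher at day 110 (log2 change 2.14 ± 0.34 SE, adjusted p = 3.95e-06) and was called on 6 of 6 probes. GPT, alanine aminotransferase, was 3.44-fold higher, PPARGC1A, a coactivator of gluconeogenic genes, was 2.09-fold higher, and FBP2, a fructose-bisphosphatase, was 1.79-fold higher, all without overlap. In the list of glycolysis and lactate genes, 2 of 16 rose, SLC2A1, the basal glucose carrier, by 1.11 and LDHA, a lactate dehydrogenase subunit, by 0.93.

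**Figure D2:**
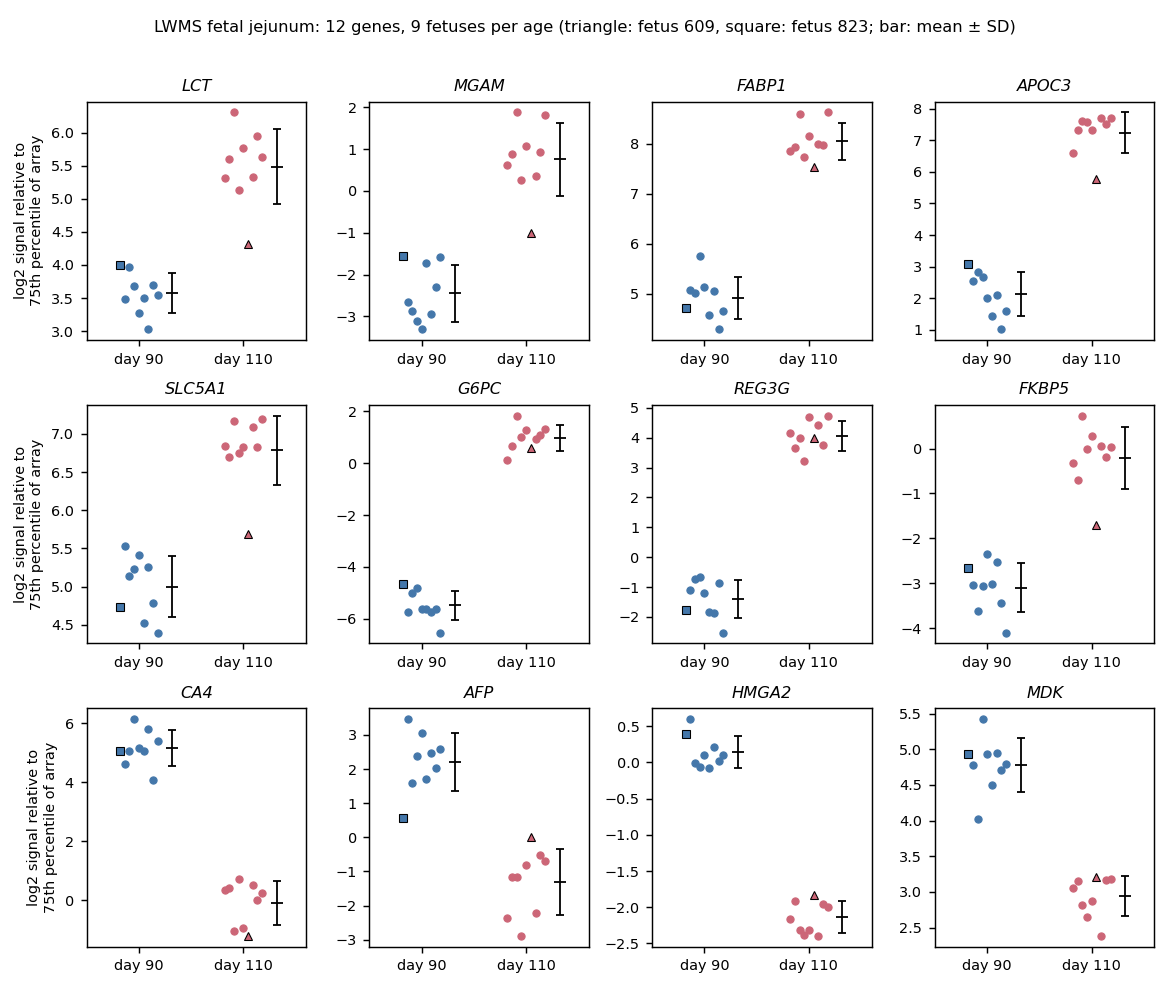
Levels of 12 genes in each LWMS fetus at day 90 and day 110 (y axis, log2 level relative to the array's 75th percentile; 1 point per fetus, 9 per age, bars at the mean ± SD; the triangle is fetus 609 and the square fetus 823). The 12 genes were picked among those called, and the ages do not overlap for any of them. Over all 11071 named genes the ages do not overlap at 483 (4.36%). LCT runs from 3.03 to 4.00 at day 90 and from 4.32 to 6.31 at day 110.

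Lipid handling was mixed. Of 19 genes of lipid absorption and chylomicron assembly, FABP1, APOC3 and SLC27A2 rose, PLIN2 fell and 15 did not pass, with a median log2 change of 0.50. FABP1, which carries fatty acids inside the enterocyte, had levels from 4.30 to 5.77 (median 5.03) at day 90 and from 7.54 to 8.63 (median 7.98) at day 110 and was 8.71-fold higher at day 110 (log2 change 3.12 ± 0.30 SE, adjusted p = 9.09e-12). APOC3, an apolipoprotein of triglyceride-rich particles, had levels from 1.02 to 3.07 (median 2.11) at day 90 and from 5.76 to 7.71 (median 7.50) at day 110 and was 33.9-fold higher at day 110 (log2 change 5.09 ± 0.70 SE, adjusted p = 1.85e-07). SLC27A2, which activates very long-chain fatty acids, had levels from -4.07 to -2.83 (median -3.20) at day 90 and from 0.62 to 2.53 (median 2.15) at day 110.

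None of these groups overlapped between the ages, and SLC27A2 was 42.3-fold higher at day 110 (log2 change 5.40 ± 0.63 SE, adjusted p = 2.24e-09). PLIN2, a coat protein of lipid droplets, was 2.26-fold lower at day 110 (log2 change -1.18 ± 0.18 SE, adjusted p = 2.09e-06). APOA1 and APOA4, major apolipoproteins of chylomicrons, did not pass, with log2 differences of 0.36 ± 0.28 and 1.04 ± 0.61, and FABP2 did not pass at 0.90 ± 0.61. In fatty acid oxidation and ketogenesis, 4 of 23 rose and 1 fell. PDK4, a kinase that shuts off pyruvate oxidation, rose by 2.22 ± 0.33 on its brightest probe and was called on 11 of 11 probes. ACAA1, a peroxisomal thiolase, rose by 1.08, ACOX2, a peroxisomal oxidase of branched chains and bile acid precursors, by 0.74 and ANGPTL4, a lipase inhibitor, by 0.88, while the mitochondrial thiolase ACAA2 fell by 0.70.

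Of 7 bile acid genes tested, 2 rose and 1 fell. SLC51B, a subunit of the basolateral bile acid exporter, was 2.15-fold higher and ABCC3, another basolateral exporter, was 2.55-fold higher. FABP6, the ileal bile acid carrier, ran from -3.95 to 1.99 (median -0.83) at day 90 and from -5.62 to 1.14 (median -5.46) at day 110. A single day 110 fetus, 874, stood at 1.14 and the next at -4.57. With it the log2 change was -3.69 ± 1.07 (adjusted p = 0.00993) and without it -4.41 (adjusted p = 0.0015), but 15 of the 18 fits that left out 1 fetus did not pass. The 3 FABP6 probes share between 54 and 59 of their 60 bases, so that they are not separate readings. ABCB11, the bile salt export pump known mainly from liver, rose without overlap, its levels running from -3.65 to -1.37 (median -2.74) at day 90 and from -0.70 to 3.01 (median 2.43) at day 110, and was 27.8-fold higher at day 110 (log2 change 4.80 ± 0.76 SE, adjusted p = 3.48e-06). In cholesterol synthesis 3 of 16 rose, the sterol enzymes CYP51A1 (1.06 ± 0.18) and MSMO1 (0.65 ± 0.17) and the sterol carrier STARD4 (1.68 ± 0.26), on the log2 scale with SE.

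With each gene taken by its brightest probe, the largest fall of any named gene was in ion and water transport, although a dimmer probe of CYP11A1 fell by more. CA4 encodes a carbonic anhydrase anchored outside the cell membrane, and its levels ran from 4.09 to 6.14 (median 5.08) at day 90 and from -1.21 to 0.71 (median 0.27) at day 110. The ages did not overlap, all 6 within-slide differences were negative, and CA4 was 38.3-fold lower at day 110 (log2 change -5.26 ± 0.47 SE, adjusted p = 6.63e-13). AQP8, a water and ammonia channel, had levels from 3.16 to 4.48 (median 3.66) at day 90 and from -0.82 to 2.70 (median 1.43) at day 110 and was 6.07-fold lower at day 110 (log2 change -2.60 ± 0.54 SE, adjusted p = 0.000314). SLC26A3, the chloride and bicarbonate exchanger whose loss causes congenital chloride diarrhoea, ran from -1.37 to 0.10 (median -0.53) at day 90 and from -6.91 to -0.46 (median -3.31) at day 110.

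The SLC26A3 groups overlapped, with 1 of the 6 within-slide differences positive, and the gene was 7.97-fold lower at day 110 (log2 change -2.99 ± 0.67 SE, adjusted p = 0.000691). GUCA2B, the precursor of uroguanylin, a hormone that drives salt and water into the lumen, fell by 1.14 ± 0.30. In the other direction, 5 of the 24 genes of the list rose. The cytosolic carbonic anhydrase CA2 rose by 1.97 ± 0.34 and the sodium bicarbonate cotransporter SLC4A4 by 1.94 ± 0.28, neither with overlap. The sodium-proton exchanger SLC9A2 rose by 1.70, the anion exchanger SLC26A6 by 1.29, and the zinc carrier SLC39A4 by 2.16. The 24 genes thus split into 5 higher, 4 lower and 15 not called, at a median log2 change of 0.54.

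Genes that answer to glucocorticoids and thyroid hormone held many calls, with 8 of 16 tested higher, 2 lower (0 with median centring) and a median log2 change of 0.98. FKBP5, a chaperone partner of the glucocorticoid receptor and a standard target of cortisol, had levels from -4.10 to -2.36 (median -3.05) at day 90 and from -1.71 to 0.73 (median -0.02) at day 110. The ages were apart, and FKBP5 was 7.43-fold higher at day 110 (log2 change 2.89 ± 0.29 SE, adjusted p = 2.72e-11). TSC22D3, also called GILZ, was 2.13-fold higher, PER1, a clock gene that cortisol induces, was 1.82-fold higher, ZBTB16, a zinc finger repressor, was 2.45-fold higher, and CEBPD, a leucine zipper factor, was 1.98-fold higher. KLF9, a target of both hormones, was 3.06-fold higher and was called on 11 of 12 probes. The receptor gene NR3C1 itself did not pass, at a log2 difference of 0.01 ± 0.13.

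DIO1, a deiodinase that activates and clears thyroid hormone, had levels from -4.64 to -2.27 (median -3.56) at day 90 and from 0.07 to 1.97 (median 1.26) at day 110. Both groups stood apart, and DIO1 was 23.3-fold higher at day 110 (log2 change 4.54 ± 0.61 SE, adjusted p = 1.14e-07). SLCO1C1, a thyroid hormone carrier, was 2.82-fold higher. The genes that fell were both thyroid hormone receptors, THRA by 0.67 ± 0.18 and THRB by 0.92 ± 0.17, and both had overlapping groups. In xenobiotic metabolism 6 of 19 rose and 1 fell. CYP3A29, a drug and steroid oxidase, was 15.6-fold higher at day 110 (log2 change 3.97 ± 0.52 SE, adjusted p = 4.4e-08) without overlap, POR, the electron donor of these oxidases, was 2.93-fold higher, and the conjugating enzymes UGT1A6 and UGT2B31 were 2.80-fold higher and 6.51-fold higher. The other 2 risers were the probes that the array names CYP3A4 and CYP3A46, whose signal was not checked against other CYP3A copies, and the gene that fell was GSTA4, a glutathione transferase, by 0.78.

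Secretory and antimicrobial genes had the highest list median, 1.62, with 6 of 13 tested higher and none lower. REG3G, a lectin that kills Gram-positive bacteria, had levels from -2.52 to -0.65 (median -1.20) at day 90 and from 3.23 to 4.73 (median 4.00) at day 110. The ages were far apart, and REG3G was 43.9-fold higher at day 110 (log2 change 5.46 ± 0.85 SE, adjusted p = 2.55e-06). DMBT1, a mucosal scavenger protein that binds bacteria, had levels from 2.04 to 2.81 (median 2.68) at day 90 and from 5.46 to 8.09 (median 5.86) at day 110 and was 15.7-fold higher at day 110 (log2 change 3.98 ± 0.37 SE, adjusted p = 2.29e-12). LYZ, lysozyme, had levels from -0.23 to 1.36 (median 0.93) at day 90 and from 2.11 to 7.14 (median 3.91) at day 110 and was 9.06-fold higher at day 110 (log2 change 3.18 ± 0.65 SE, adjusted p = 0.000249).

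For LYZ the highest value was that of fetus 609, at 7.14, with the next at 4.66. PIGR, the receptor that carries IgA across the epithelium, was well above background in 2 fetuses at day 90 and in all 9 at day 110, and its fitted log2 change was 5.38 ± 0.70, or 3.10 with normexp. CLCA1, a goblet cell protein of mucus, was 3.07-fold higher, and SPDEF, a factor of goblet cell maturation, was 3.53-fold higher with overlapping groups. The mucin MUC2 did not pass, at 0.63 ± 0.57. REG3A, a relative of REG3G outside the list, ran from -0.91 to 1.79 (median 0.98) at day 90 and from 5.38 to 6.67 (median 6.27) at day 110 and was 46.5-fold higher at day 110 (log2 change 5.54 ± 0.85 SE, adjusted p = 1.85e-06). The summed level of the 13 genes ran from 617 to 1127 at day 90 (median 837) and from 1022 to 1930 at day 110 (median 1391).

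A further large rise was that of a probe named IGF1, which encodes insulin-like growth factor 1, a mediator of growth hormone. This probe, the brightest of the gene, ran from -2.15 to 0.85 (median -0.96) at day 90 and from 2.86 to 5.79 (median 5.04) at day 110, without overlap, and was 50.5-fold higher at day 110 (log2 change 5.66 ± 0.64 SE, adjusted p = 1.25e-09). The other 2 IGF1 probes did not move with it: their log2 differences were -0.13 and -0.38 and neither was called. The 3 probe sequences are printed because the result rests on the first of them alone, and no stretch of 15 bases or more is shared among them. The probe that rose is named from a cDNA clone, and since no probe was mapped to a genome here, its target was not checked and the value is that of the probe.
IGF1 probe that rose: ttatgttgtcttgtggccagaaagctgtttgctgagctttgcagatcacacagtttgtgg
IGF1 probe at -0.13: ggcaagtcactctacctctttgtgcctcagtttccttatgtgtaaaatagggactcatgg
IGF1 probe at -0.38: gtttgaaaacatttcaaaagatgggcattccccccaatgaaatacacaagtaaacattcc

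Within the IGF and growth list of 20 tested genes, 3 rose and 2 fell by brightest probe, the IGF1 probe among the 3. GHR, the growth hormone receptor, was 1.95-fold higher and was called on 7 of 7 probes, and IGFALS, which keeps IGF in the circulation, was 2.14-fold higher with overlap. IRS1, the adaptor of the insulin and IGF receptors, fell by 1.09 ± 0.19 without overlap. IGF2, the fetal growth factor, was called lower on 6 of its 9 probes, and the log2 differences of all 9 lay between -1.29 and -1.04. Its brightest probe just missed the threshold, with levels from 6.41 to 7.40 (median 7.11) at day 90 and from 4.69 to 6.84 (median 6.18) at day 110, a log2 difference of -1.04 ± 0.31 and an adjusted p of 0.0115. The IGF1 receptor gene IGF1R was not called, at 0.30 ± 0.22.

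Fetal regulators moved only downward among those called: 5 of 17 tested fell, and the list median was -0.36. HMGA2, a chromatin protein of embryonic growth, had levels from -0.07 to 0.60 (median 0.10) at day 90 and from -2.40 to -1.83 (median -2.16) at day 110 and was 4.86-fold lower at day 110 (log2 change -2.28 ± 0.21 SE, adjusted p = 2.29e-12). IGF2BP1, an RNA-binding protein that protects fetal transcripts, ran from 0.86 to 1.70 (median 1.44) at day 90 and from -1.20 to 0.32 (median -0.52) at day 110 and was 3.56-fold lower at day 110 (log2 change -1.83 ± 0.18 SE, adjusted p = 6.52e-12). MDK, midkine, a heparin-binding growth factor of the embryo, ran from 4.03 to 5.42 (median 4.80) at day 90 and from 2.38 to 3.21 (median 3.06) at day 110 and was 3.58-fold lower at day 110 (log2 change -1.84 ± 0.15 SE, adjusted p = 9.62e-14).

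In none of these 3 genes did the ages overlap. SOX11, a factor of developing neurons and mesenchyme, fell by 1.20 ± 0.24, and the imprinted RNA H19 by 2.14 ± 0.61 with overlapping groups. Among 25 tested cell cycle genes 12 fell and none rose, against 6.47% of all genes, with a median log2 change of -0.61. CCNB1, which triggers entry into mitosis, ran from 0.62 to 1.22 (median 0.83) at day 90 and from -0.51 to 0.71 (median -0.04) at day 110 and was 1.89-fold lower at day 110 (log2 change -0.92 ± 0.17 SE, adjusted p = 3.41e-05), and the DNA replication licensing gene MCM2 ran from 0.04 to 0.90 (median 0.61) at day 90 and from -1.12 to 0.07 (median -0.45) at day 110 and was 1.95-fold lower at day 110 (log2 change -0.96 ± 0.17 SE, adjusted p = 3.56e-05). The kinases and checkpoint genes CDK1, AURKA, PLK1, BUB1 and CDC20 fell by 0.65, 0.59, 0.83, 0.69 and 0.86, and the ages overlapped in all 12 genes that fell. The proliferation marker MKI67 was not called, at 0.14 ± 0.17. Centring on the array median gave 2 lower cell cycle genes, and leaving out fetus 609 gave 15.

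In the crypt list 2 of 15 tested genes rose (13.3%, against 5.11% of all genes) and none fell. OLFM4, a secreted marker of crypt base cells, had levels from -3.47 to -2.08 (median -2.88) at day 90 and from -1.23 to 1.25 (median 0.05) at day 110 and was 6.70-fold higher at day 110 (log2 change 2.74 ± 0.47 SE, adjusted p = 1.38e-05). LGR4, a receptor that strengthens Wnt signals, was 1.65-fold higher on its brightest probe, while 1 of its other probes was called lower. Of 16 epithelial transcription factors, VDR and MAF rose. VDR, the vitamin D receptor, ran from 0.04 to 1.19 (median 0.77) at day 90 and from 2.61 to 4.54 (median 3.43) at day 110 without overlap and was 6.99-fold higher at day 110 (log2 change 2.81 ± 0.27 SE, adjusted p = 9.09e-12), and MAF was 3.29-fold higher with overlap. HNF4A, a master regulator of enterocytes, was not called, at -0.24 ± 0.19.

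Of 7 steroid synthesis genes tested, 1 rose and 2 fell. CYP11A1 encodes the side-chain cleavage enzyme that makes pregnenolone from cholesterol, the entry step of all steroid synthesis. On 4 of its 6 probes the signal was well above background in 9 of 9 fetuses at day 90 and in none at day 110, so that only a lower bound of the fall can be given. One probe lay in a region of its own, and the other 3 share between 57 and 60 bases and count as a single reading. The probe sequences are printed because these bounds rest on them, and capitals mark the stretch shared with another CYP11A1 probe.
CYP11A1 probe with its own target: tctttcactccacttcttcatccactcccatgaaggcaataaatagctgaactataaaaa
CYP11A1 probe of the shared region: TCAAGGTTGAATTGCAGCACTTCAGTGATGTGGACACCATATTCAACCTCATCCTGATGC
CYP11A1 probe above background at both ages, the brightest over all arrays: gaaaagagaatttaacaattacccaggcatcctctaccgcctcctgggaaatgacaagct
CYP11A1 probe above background at both ages, the other: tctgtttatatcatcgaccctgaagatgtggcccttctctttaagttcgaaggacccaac

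The CYP11A1 probe with its own target ran from -0.96 to 2.59 (median 0.77) at day 90 and from -8.31 to -6.01 (median -6.75) at day 110, the latter at background. It was at least 86.3-fold lower at day 110 (adjusted p = 5.77e-13), and the shared region gave bounds of at least 20.6-fold to 21.6-fold. The 2 probes that stayed above background in most fetuses fell by 1.25 ± 0.30 and by 1.90 ± 0.40 on the log2 scale. All 6 probes therefore fell, but by sizes that range widely. CYP17A1, a later enzyme on the way to androgens and cortisol, went the other way: its brightest probe was above background in 1 of 9 fetuses at day 90 and in 9 of 9 at day 110, with levels from -7.89 to -5.15 (median -6.24) at day 90 and from -4.25 to -0.23 (median -0.96) at day 110. Its fitted log2 change was 4.91 ± 0.68 (adjusted p = 2.26e-07) and 2.27 with normexp, so that its size is uncertain, 2 of its 4 probes were called, and the other 2 differed by 1.24 and 1.69. NR5A2, a nuclear receptor of steroid genes, fell by 0.61.

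Beyond the lists, the genes with the largest rises had varied roles. CD5L, a protein secreted by macrophages, ran from -5.45 to -1.04 (median -2.58) at day 90 and from 0.04 to 3.44 (median 2.93) at day 110, was 45.3-fold higher at day 110 (log2 change 5.50 ± 0.65 SE, adjusted p = 4.73e-09) and was called on 6 of 6 probes. The macrophage markers CD163, VSIG4 and CD14 rose by 1.28, 0.86 and 0.71 as well, 3 of 10 tested, but the summed level of the 10 ran from 10.6 to 19.2 at day 90 and from 8.97 to 17.8 at day 110, with wide overlap. The part of macrophage number in the CD5L result was not tested. GDA, guanine deaminase of purine breakdown, was 17.2-fold higher at day 110 (log2 change 4.10 ± 0.39 SE, adjusted p = 4.62e-12), and SEC14L2, a lipid carrier that binds vitamin E, was 13.6-fold higher at day 110 (log2 change 3.77 ± 0.46 SE, adjusted p = 7.17e-09). GIF, the gastric intrinsic factor that binds vitamin B12, ran from -2.98 to 1.09 (median -0.86) at day 90 and from -1.46 to 7.70 (median 2.47) at day 110 and was 15.8-fold higher at day 110 (log2 change 3.98 ± 1.13 SE, adjusted p = 0.00809), with groups that overlapped widely. ASB4, an adaptor of ubiquitin ligases, was above background in no fetus at day 90 and in 9 of 9 at day 110, and was at least 8.97-fold higher at day 110 (adjusted p = 9.07e-09). This bound holds for the main processing, and the log2 change of ASB4 was as small as 1.80 in the alternatives.

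Of 15 plasma protein genes tested, AFP, RBP4, TF and SERPINA1 fell and HPX rose, and 10 did not pass. AFP, alpha-fetoprotein, the main serum protein of the fetus, ran from 0.56 to 3.46 (median 2.37) at day 90 and from -2.89 to 0.02 (median -1.15) at day 110 and was 11.5-fold lower at day 110 (log2 change -3.52 ± 0.57 SE, adjusted p = 5.65e-06). RBP4, the carrier of retinol in blood, ran from 2.66 to 4.27 (median 3.64) at day 90 and from -1.80 to 2.60 (median 1.33) at day 110 and was 8.93-fold lower at day 110 (log2 change -3.16 ± 0.53 SE, adjusted p = 8.33e-06). Both genes had ages that did not overlap. TF, transferrin, fell by 2.04 ± 0.42 and SERPINA1, an elastase inhibitor, by 1.46 ± 0.42, whereas HPX, hemopexin, which binds free heme, was 14.0-fold higher at day 110 (log2 change 3.81 ± 0.52 SE, adjusted p = 1.5e-07). LECT2, a chemotactic protein made chiefly by the liver, fell from a median of 4.89 to 2.19 without overlap and was 10.4-fold lower at day 110 (log2 change -3.37 ± 0.65 SE, adjusted p = 0.000103).

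Some blood and stromal markers fell too. Of 8 erythroid markers 4 fell, HBB by 2.96, HBA1 by 1.88, AHSP, the chaperone of alpha globin, by 2.43, and HBE1, an embryonic globin. HBE1 was well above background in 5 fetuses at day 90 and in none at day 110, and was at least 1.81-fold lower with the main processing. Its log2 change was as small as -0.33 in the alternatives. SLC4A1, the anion exchanger of red cells, was not called, at 0.03 ± 0.15. The summed level of the 8 ran from 20.6 to 198 at day 90 (median 131) and from 29.0 to 95.8 at day 110 (median 50.2). Blood markers were thus lower at day 110 in the median, with overlap, and their part in the fall of the plasma protein genes was not tested.

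Of 29 fibroblast and matrix genes, COL1A2, DCN, POSTN, THY1 and FBLN1 fell, by 0.88, 0.57, 0.89, 0.97 and 0.78, and LAMB1, a laminin chain, rose by 0.73. These are chiefly genes of fibrillar matrix and its fibroblasts, and with median centring 1 gene of the list passed as lower. In smooth muscle 2 of 16 fell, or 12.5% against 6.47% of all genes. These were ACTA2, smooth muscle actin, by 0.75 on 8 of 8 probes and SYNPO2 by 1.03, and with median centring neither passed. Of 13 enteric neuron and glia genes 3 fell (23.1%), or 1 with median centring: the neuronal genes UCHL1, TUBB3 and GAP43, by 0.96, 0.90 and 0.87. Summed levels overlapped in all of these tissues: smooth muscle markers ran from 696 to 1042 at day 90 and from 534 to 1077 at day 110, matrix genes from 355 to 516 and from 176 to 451, and neuronal and glial genes from 26.5 to 45.5 and from 19.5 to 37.6. CLDN5, a tight junction gene of vessels, was the 1 endothelial marker of 13 that fell, by 0.83. That share of 7.69% was near the 6.47% of all genes.

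The immune lists differed in their share of calls, where 11.6% of all genes were called. None of 24 interferon-stimulated genes, 21 antigen presentation genes, 12 T and NK cell markers or 9 B and plasma cell markers was called by limma. Unadjusted p was under 0.05 for 9, 1, 0 and 2 of them, and for 3815 of all 11071 genes. The median log2 differences of these lists lay between -0.12 and 0.11. Among 23 chemokines and cytokines 5 fell (21.7%, against 6.47% of all genes) and none rose. CXCL12, the stromal chemokine that holds lymphoid and stem cells in place, ran from 3.74 to 5.12 (median 4.11) at day 90 and from 2.16 to 3.38 (median 2.71) at day 110 without overlap and was 2.99-fold lower at day 110 (log2 change -1.58 ± 0.23 SE, adjusted p = 9.77e-07). CXCL13, which draws B cells, was 6.70-fold lower at day 110 (log2 change -2.75 ± 0.62 SE, adjusted p = 0.000756) with overlap, and CCL4 and CCL8 fell by 1.30 and 1.59, with CCL8 above background in 5 and 4 fetuses. IL6 was above background in 4 fetuses at day 90 and in none at day 110, and was at least 1.83-fold lower with the main processing. Its log2 change was as small as -0.51 in the alternatives. In the complement and coagulation list, 4 of 29 rose (13.8%, against 5.11% of all genes) and 1 fell. C7 and C5 of the lytic pathway rose by 1.93 and 1.91 without overlap, the coagulation gene F3 rose by 0.98, and C4A fell by 0.80.

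The other large falls were spread over unrelated families. The spermadhesin AWN, a carbohydrate-binding protein best known from boar semen, was 6.88-fold lower at day 110 (log2 change -2.78 ± 0.34 SE, adjusted p = 6.39e-09). PMAP-23, an antimicrobial peptide of pig myeloid cells, was 6.08-fold lower at day 110 (log2 change -2.60 ± 0.53 SE, adjusted p = 0.000228). WT1, a transcription factor of the mesothelium that covers the gut, ran from -2.44 to -1.56 (median -1.96) at day 90 and from -6.26 to -2.67 (median -5.04) at day 110 and was 6.06-fold lower at day 110 (log2 change -2.60 ± 0.43 SE, adjusted p = 7.18e-06). GRIA4, a glutamate receptor subunit, fell by 2.82, the probe named C14ORF76 by 2.62, MYL7, a myosin light chain of atrial muscle, by 2.67 and XIRP2, an actin-binding protein of striated muscle, by 2.48. NTS, neurotensin, was the 1 enteroendocrine gene of 15 that fell, by 2.77 ± 0.69, a share of 6.67% near the 6.47% of all genes. CRSP-2, a peptide of the calcitonin family, was above background in 9 of 9 fetuses at day 90 and in none at day 110, and was at least 4.30-fold lower at day 110 (adjusted p = 4.39e-10). This bound too holds for the main processing, and the log2 change of CRSP-2 was as small as -1.07 in the alternatives. Peptide and amino acid carriers (13 tested) and genes of fetal endocytosis (17 tested) held no call by limma. Of them 2 and 6 had an unadjusted p under 0.05, as did 3815 of all 11071 genes. The neonatal Fc receptor FCGRT differed by -0.25 ± 0.13.

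A further list was of 30 genes that the study itself named on these samples, so that its counts are not independent evidence: 13 rose and 3 fell. Members not described above included GAL3ST1, a sulfotransferase of glycolipids, at 2.94 ± 0.29, SDCBP2, a scaffold protein, at 2.51 ± 0.29, BCKDHB, a subunit of branched-chain amino acid breakdown, at 0.77 ± 0.18, FHL3, a LIM domain protein, at -1.33 ± 0.10 and KCNS3, a potassium channel subunit, at -1.01 ± 0.15.

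The fetuses of an age were not all alike. Over the 566 genes that were higher at day 110, the median level of fetus 609 was 0.95 and that of the other 8 day 110 fetuses 1.25 to 1.51. Over the 716 genes that were lower, its median was -0.99 and theirs -1.45 to -1.21. Fetus 609 was the day 110 fetus nearest to day 90 for 272 of the higher and 311 of the lower genes, and its array was the only LWMS array on its slide. Without it 4355 probes were called, and without fetus 823, whose array had the most probes above background, 3499 were called.

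**Figure D3:**
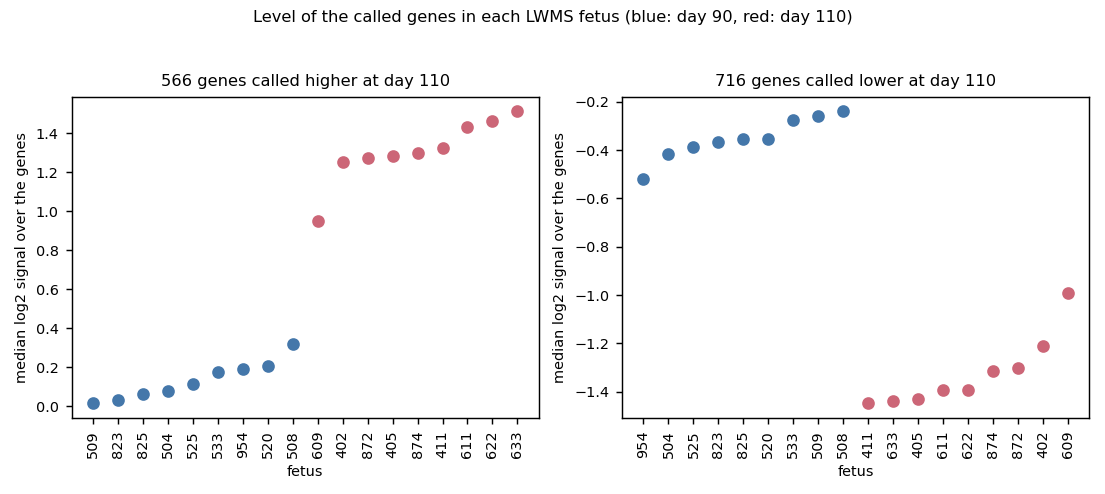
Median level of each LWMS fetus over the 566 genes called higher and the 716 called lower at day 110 (y axis, log2 level relative to the array's 75th percentile; 1 point per fetus, 9 per age). Fetus 609 lies between the ages in both panels, at 0.95 and -0.99, and since the ages chose the genes, the gap between the groups is a description.

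The change with age in LWMS was then set beside that of the other genotypes. Of the 3996 probes called in LWMS, 3958 had the same direction in MS, 3867 in MSLW and 3790 in LW. The probes also called in the same direction numbered 1001 in MS, 1491 in MSLW and 1268 in LW, where 3.12%, 5.43% and 4.76% of all probes were called. No arrays are shared between genotypes, but LWMS and MS fetuses shared litters. The median size of the change at these probes was 0.91 in LWMS and, taken in the LWMS direction, 0.65 in MS, 0.69 in MSLW and 0.55 in LW. Since the probes were chosen in LWMS, these sizes are a description, with no test.

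**Figure D4:**
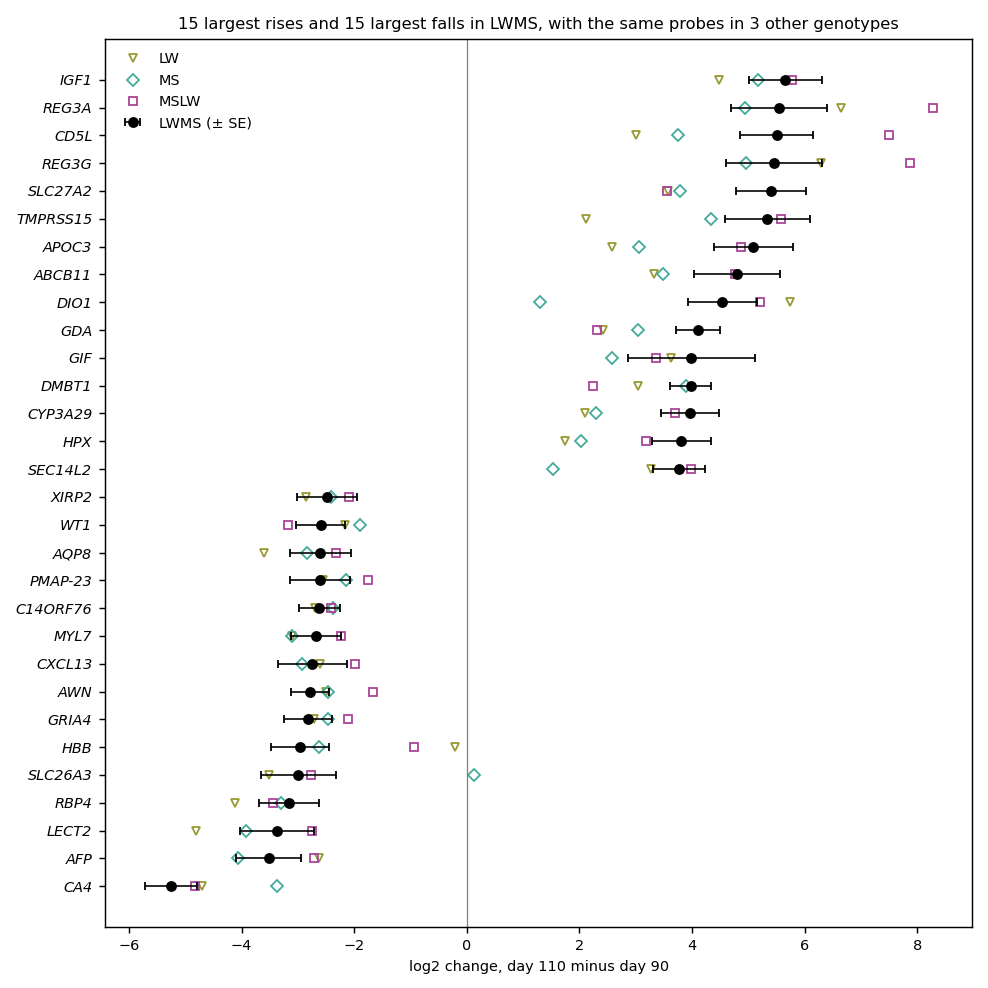
Log2 change from day 90 to day 110 (x axis) for the 15 largest rises and 15 largest falls in LWMS (filled points, bars ± SE) and in LW, MS and MSLW (open symbols). The IGF1 probe has a change of 5.66 in LWMS, 4.47 in LW, 5.16 in MS and 5.77 in MSLW, and CA4 of -5.26, -4.71, -3.37 and -4.84.

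Direct tests found few probes where the change in LWMS differed from another genotype. Against MS, none of 40515 probes passed an adjusted p of 0.05 in limma (0%), and 957 had an unadjusted p under 0.05. Against LW 15 probes passed (0.037%), 6 with a more positive and 9 with a more negative change in LWMS, and 3076 had an unadjusted p under 0.05. Against MSLW 2 probes passed (0.00494%), and against the mean of all 3 genotypes 1 passed (0.00247%), with 2211 and 1521 at an unadjusted p under 0.05. With no difference at any probe, a share of 0.05 of the probes is expected under that p. The counts against MS and against the mean lay below this share, and those against MSLW and LW above it. The MS groups held 6 and 7 arrays and the LW groups 9 and 9, and LWMS and MS fetuses shared litters. The counts therefore do not rank how near each genotype is to LWMS.

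SRPX2, a secreted sushi-repeat protein encoded on the X chromosome, was the probe that passed against the mean of the 3 genotypes, with a log2 difference of 1.30 ± 0.22 (SE, adjusted p = 0.00948). This SRPX2 probe ran from -1.84 to -1.02 (median -1.35) in LWMS at day 90 and from -1.39 to 0.88 (median -0.38) at day 110, a log2 change of 1.13 ± 0.19. In MS it changed by 0.71, in LW by -0.64 and in MSLW by -0.59. The mean change was thus positive in both genotypes with an MS sow and negative in both with an LW sow. At day 90 the means of this probe were -1.41 in LWMS, -1.33 in MS, 0.51 in LW and 0.53 in MSLW. At day 110 they were -0.29, -0.62, -0.13 and -0.06 in the same order, so that the genotypes lay farther apart at day 90. The change with age in LWMS differed from that in LW by 1.76 ± 0.26 (adjusted p = 9.79e-05) and from that in MSLW by 1.72 ± 0.28 (adjusted p = 0.0039). The other SRPX2 probe changed by -0.21 in LWMS, -0.23 in MS, -1.53 in LW and -1.43 in MSLW, and differed from LW by 1.32 ± 0.24 (adjusted p = 0.00401). The difference thus had the same sign on both probes, although the first rose in LWMS and the second did not pass. The SRPX2 probes are printed because they share no stretch of 15 bases or more.
SRPX2 probe that rose in LWMS: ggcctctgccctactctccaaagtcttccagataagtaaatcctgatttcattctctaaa
SRPX2 probe not called in LWMS: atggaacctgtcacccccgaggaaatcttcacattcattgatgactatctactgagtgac

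**Figure D5:**
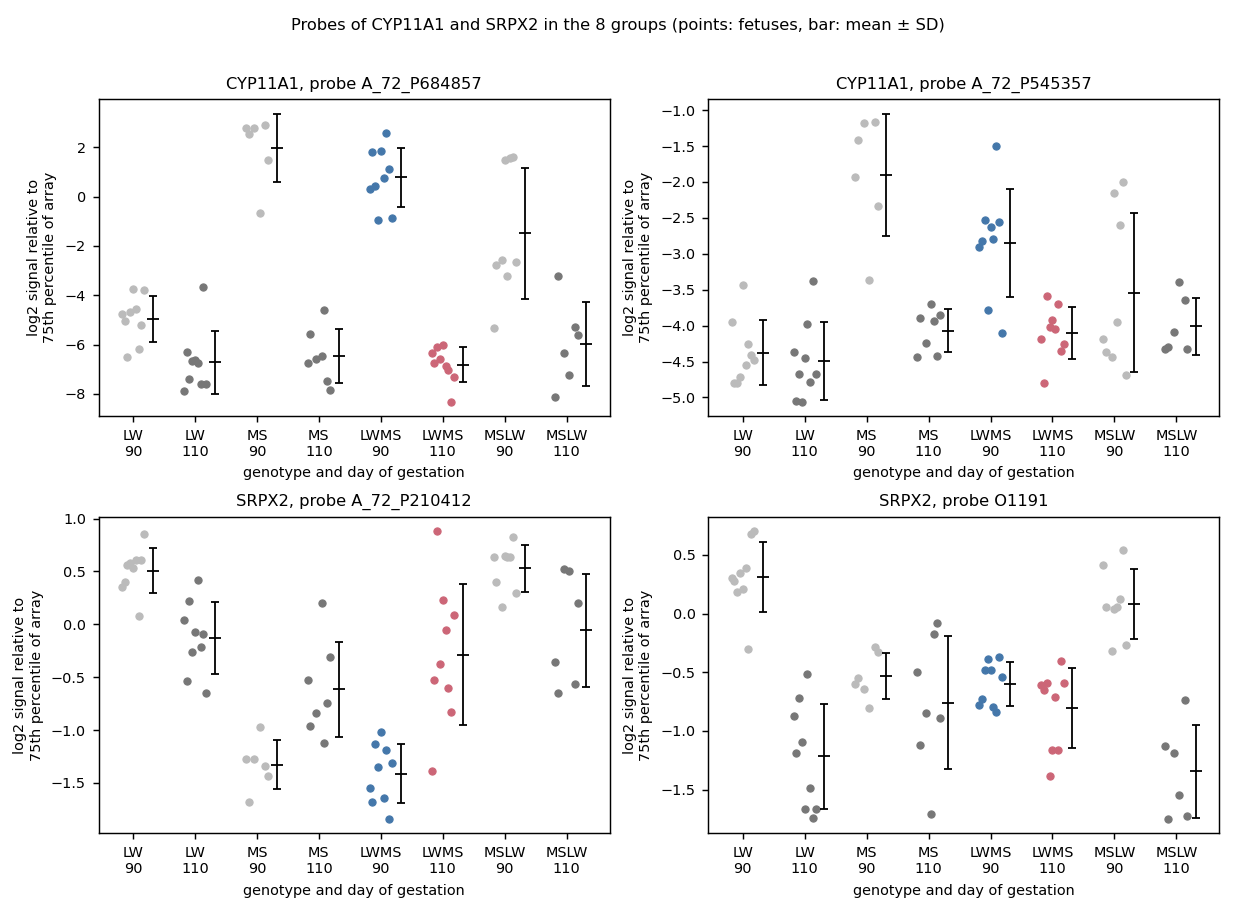
Levels of 2 CYP11A1 and 2 SRPX2 probes in each fetus of the 4 genotypes at day 90 and day 110 (y axis, log2 level relative to the array's 75th percentile; 1 point per fetus, bars at the mean ± SD). The mean of the first CYP11A1 probe is 0.78 in LWMS at day 90 and -6.81 at day 110, and LW stands at -4.95 and -6.72.

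CYP11A1 made up 4 of the 15 probes that differed from LW. Its other probes, above background in most LWMS fetuses at both ages, did not pass against LW. The probe with its own target had a day 90 mean of 0.78 ± 1.21 (SD, n = 9) in LWMS, 1.97 ± 1.39 (n = 6) in MS, -1.49 ± 2.66 (n = 8) in MSLW and -4.95 ± 0.93 (n = 9) in LW, and means between -6.81 and -5.97 at day 110 in all 4. At day 110 none of these 4 probes was above background in any LWMS or LW fetus, and those of the shared region were above it in at most 1 of 9 LW fetuses at day 90, so that the sizes of the differences are not measured. The fitted change in LWMS minus that in LW was -5.82 ± 0.94 on the log2 scale at the probe with its own target (adjusted p = 0.000577) and -4.22 with normexp, and in the shared region -6.80 to -6.61 and -2.99 to -2.79 with normexp. At all 4 probes the difference passed in all 26 alternatives. The day 90 means thus had LW lowest and MS highest, given as a description, and at day 110 the probe was well above background in only 1 fetus of the series, an MSLW fetus. The brightest G6PC probe rose more in LWMS than in LW, by 3.14 ± 0.65 (adjusted p = 0.0341), with log2 changes of 6.45 and 3.32. In 13 of 26 alternatives this difference did not pass, and the other G6PC probes did not pass against LW. At day 90 the brightest probe was well above background in 2 of 9 LWMS and 3 of 9 LW fetuses.

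Of the other probes that differed from LW, those with a name were few. TEX12, a protein of meiotic chromosomes, changed by 1.95 in LWMS and by -1.38 in LW, a difference of 3.33 ± 0.68 (adjusted p = 0.0266). A probe of NFE2L3, a stress-response factor, changed by -2.01 in LWMS and by 0.28 in LW, while the brightest NFE2L3 probe differed by -0.30 in LWMS. A probe of RACGAP1, a protein of cell division, changed by -0.75 in LWMS and by 0.39 in LW. For C1ORF63 the changes were -0.68 and 0.97. A single XPO5 probe, for the exporter of microRNA precursors, changed by -1.28 in LWMS and by 0.38 in LW, but the other 3 XPO5 probes changed by 0.00, 0.47 and 0.05 in LWMS. Likewise the BAG6 probe that differed from MSLW, by -2.45 ± 0.42 (adjusted p = 0.0039), stood alone, since the other 3 BAG6 probes changed by -0.08, 0.09 and -0.30. The remaining 3 probes had no gene name.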

How the data were processed

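Total RNA of the mid jejunum of male fetuses was hybridised, 1 sample per array, to 1-colour (Cy3) Agilent porcine arrays of 60305 probes. The labels of fetuses 401, 611 and 632, of which 611 is an LWMS fetus at day 110, name another dye. Their scanner files hold 1 channel like the rest, and all were read as Cy3. The deposited scanner files hold the processed intensity of each spot, which the authors made with Feature Extraction 10.10.1.1, including its background subtraction. The authors also deposited a table of log2 values with 39446 probes, used here only as an alternative. No genome build was used.

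The intensity was taken to log2 after outlier spots were set missing, spots of a probe were averaged, and each array was scaled to its 75th percentile. A probe was kept if 1 of the 8 groups had it well above background in 75% or more of its arrays (40515 probes). The means of all 8 groups (63 arrays) were fitted with limma 3.58.1 in R 4.3.3, with eBayes and Benjamini-Hochberg adjustment over all 40515 probes, two-sided. A change with age needed an adjusted p no higher than 0.01 and a log2 change of 0.5 or more in size, and a difference between genotypes an adjusted p under 0.05. All p-values in the text come from this fit, save that of FABP6 without fetus 874, which comes from the same fit with that array left out. The number of arrays limits the precision.

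Gene names came from the array annotation, the study's own probe table and a gene table matched by identifier, and 28331 of 60305 probes had one. Named genes were the 15 largest rises and falls among probes above background in at least 7 fetuses of both ages, genes above background at 1 age only, the smallest p of each interaction, and list members, each by its brightest probe. Some list members are not reported here. The members and lists were chosen with earlier results of these data known. A gene above background in no fetus of 1 age was given as a bound: the log2 mean of the bright group against that of, per dim array, the lowest signal well above background or the probe's own if higher. The bounds hold for the main processing, and in the alternatives some changes were smaller than the bound.

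Alternatives were the deposited log2 table, normexp background correction (offset 50), quantile normalization, median centring, no filter and a stricter filter on dim probes, the slide as a block, array weights, the 18 LWMS arrays alone, no minimum change and each LWMS fetus left out. The script was tested on simulated data.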

Additional observations from a re-analysis of the deposited data

Results flagged for a closer look

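Of 344 groups of 9 fetuses tested, 1 for each of 171 named genes and age and 1 for each age's share of probes above background, 27 had a fetus far from the other 8 (gap over range above 0.493), and chance alone gives about 1 in 20. Of the 27, 16 were fetus 609 at day 110. Fetus 609 was the lowest at SLC5A1 (5.69, next 6.70), ASS1 (3.55, next 6.28), SLC5A4 (3.97, next 4.82), IGF1 (2.86, next 4.64), SEC14L2 (1.55, next 2.97), SLC5A10 (0.27, next 1.80), ALPI (0.61, next 2.35), SCNN1A (0.0566, next 1.86), CD5L (0.0385, next 2.28), ABCB11 (-0.70, next 1.90), MAF (-2.04, next -0.40), SLC27A2 (0.62, next 1.80) and CYP17A1 (-4.25, next -1.98). It was the highest at LYZ (7.14, next 4.66), CDK1 (1.64, next 0.83) and C7 (-0.66, next -1.32). At all but LYZ and C7 its value was on the side of day 90.

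At day 90, fetus 823 had 87.6% of probes above background (next 67.5%) and the highest GHR level (0.66, next 0.26). Fetus 533 was the highest at SLC9A2 (-0.97, next -2.32), IL6 (-1.94, next -4.21) and CYP3A4 (-3.71, next -6.40), fetus 508 at FOLH1B (3.70, next 3.09) and fetus 525 at BPIFB3 (-1.27, next -1.96), and fetus 504 was the lowest at HBE1 (-6.27, next -4.86). At day 110, fetus 411 was the lowest at COL1A2 (2.99, next 3.90) and SOX11 (-3.62, next -2.65), and fetus 874 the highest at FABP6 (1.14, next -4.57). Without fetus 874 the log2 change of FABP6 was -4.41 (adjusted p = 0.0015).

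The change with age in LWMS differed from that in LW at 15 probes. The differences on the log2 scale, LWMS minus LW, were -6.61, -6.80 and -6.64 at the overlapping CYP11A1 probes, -5.82 at the CYP11A1 probe with its own target (fits to signal at background at day 110, which gave -2.99 to -2.79 and -4.22 with normexp), 1.76 and 1.32 at the SRPX2 probes, -1.65 at C1ORF63, -1.66 at XPO5, -2.29 at NFE2L3, 3.33 at TEX12, 3.14 at G6PC, -1.14 at RACGAP1 and -1.73, 1.32 and 1.29 at the unnamed probes. Against MSLW the differences were 1.72 at SRPX2 and -2.45 at BAG6, and against the mean of the other 3 genotypes 1.30 at SRPX2.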

How the results depend on the processing

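The 3996 probes called in LWMS became 3596 with the deposited log2 values, 3194 with normexp, 3283 with quantile normalization, 2758 with median centring, 4045 with the slide as a block, 5916 with array weights and 4410 with the 18 LWMS arrays alone. Leaving out 1 LWMS fetus gave 3304 to 4355. Against LW, the 15 probes became 70 with normexp and 890 with array weights, and 11 to 17 without 1 fetus. Against MSLW, the 2 became 5 with quantile normalization and 9 with array weights, and 2 to 6 without 1 fetus, 6 without fetus 874. Against the mean of the 3 genotypes, the 1 became 2 with normexp, 2 with median centring and 12 with array weights, and 1 to 3 without 1 fetus. Against MS, the 0 became 2 with the deposited values, 2 with median centring, 2 with the slide block and 6 with array weights, and 0 to 2 without 1 fetus. Of 166 named genes called, all 166 kept their direction in every alternative and 128 stayed called in all. The call was lost most often for FABP6 (21 of 28 alternatives), C4A (19), CCL8 (19), TNNI2 (17), IGFALS (16 of 27), H19 (15), SERPINA1 (15), SLC30A1 (15) and GIF (14), and the difference from LW for RACGAP1 (17 of 26) and G6PC (13 of 26). With normexp, log2 changes shrank by over 1.5 times at probes near background, among them G6PC (4.10), PIGR (3.10), CYP17A1 (2.27), SLC26A3 (-1.99), GRIA4 (-1.63), MYL7 (-1.54), WT1 (-1.25), NTS (-1.39), UGT2B31 (1.56), LRAT (1.35), HSPB3 (-1.32), BPIFB1 (-1.64), BPIFB2 (-1.22) and BPIFB3 (-1.02), and the calls of CCL8 (-0.54), CYP3A4 (0.54), CD14 (0.39) and IGFALS (0.26) were lost. Counts of list members moved too: with array weights those higher became 10 in ion transport, 8 in fatty acid oxidation, 7 in cholesterol synthesis, 6 in lipid absorption and 4 among epithelial factors, and those lower became 5 in the growth list. The chemokines that fell became 3 with normexp. The cause was not tested. By replicate number, no paired analysis was possible because the numbers name single fetuses and no number occurs at both ages. Paired by slide, the mean of the within-slide differences had the direction of the fit at all 171 named genes.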

Other observations

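The genes below were chosen after their values were seen. Vitamin B12 carriers rose beside GIF: TCN1, haptocorrin, ran from -0.60 to 2.80 (median 1.57) at day 90 and from 1.28 to 6.83 (median 4.03) at day 110 and was 6.49-fold higher at day 110 (log2 change 2.70 ± 0.69 SE, adjusted p = 0.00335), and TCN2, the carrier that delivers B12 to cells, was 3.85-fold higher at day 110 (log2 change 1.95 ± 0.35 SE, adjusted p = 3.41e-05) and was called on 5 of 5 probes. Among genes of nitrogen metabolism, ASS1, which joins citrulline and aspartate on the way to arginine, was 7.40-fold higher at day 110 (log2 change 2.89 ± 0.54 SE, adjusted p = 6.86e-05). OAT, ornithine aminotransferase, was not called, at -0.62 ± 0.33. Metal carriers rose too, SLC11A2, the apical iron carrier, by 2.58 ± 0.45, SLC30A10, a manganese exporter, by 1.77 ± 0.35 and SLC30A1, a zinc exporter, by 0.88 ± 0.25. The sodium channel subunit SCNN1A rose by 2.86, and the sodium-coupled carriers SLC5A4, SLC5A6 and SLC5A10 by 1.95, 1.85 and 2.87.

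Secreted BPI-fold proteins of mucosal surfaces fell, BPIFB1 by 2.97 ± 0.62, BPIFB2 by 2.20 ± 0.41 and BPIFB3 by 2.13 ± 0.52, none with overlap. Genes of striated muscle fell beside MYL7 and XIRP2: TNNI3, cardiac troponin I, ran from 0.53 to 1.36 (median 0.87) at day 90 and from -0.76 to 0.11 (median -0.38) at day 110 and was 2.41-fold lower at day 110 (log2 change -1.27 ± 0.19 SE, adjusted p = 9.07e-07) on its brightest probe and called on 9 of 9. TNNI2, fast skeletal troponin I, fell by 1.15, ACTC1, cardiac actin, by 0.69 and HSPB3, a small heat shock protein of muscle, by 3.26. In retinoid metabolism, LRAT, which stores retinol as ester, rose by 2.45 ± 0.57, the retinol carrier RBP2 was not called at 1.34 ± 0.55, and CYP26A1, which breaks down retinoic acid, was above background in 4 of 9 fetuses at day 90 and in none at day 110, at least 1.61-fold lower with the main processing. The log2 change of CYP26A1 was as small as -0.43 in the alternatives.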
